A study of Mus musculus with 2 samples.

Results

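The cells described here are retinal cells that carried neurogenic progenitor transcripts but few transcripts of mitosis. Cells were chosen by the measured UMIs of the genes in the rule. A cell was a member when at least 2 of 6 neurogenic genes (Olig2, Foxn4, Dll3, Dll4, Pkib and Rgs13) were detected in it. Fewer than 2 of Otx2, Prdm1, Neurod4 and Epha8 and fewer than 2 of Ptf1a, Prdm13, Lhx5 and Neurog1 could be detected, and 10 mitotic genes (Mki67, Top2a, Cenpf, Ube2c, Birc5, Nusap1, Tpx2, Cdk1, Ccna2 and Hist1h2ap) had to sum to less than 2000 CPM, the cell's counts of unique molecular identifiers (UMIs) scaled to a common total of 1000000. Of 8814 cells with at least 500 genes, 163 met the rule, 49 of 3620 in one library and 114 of 5194 in the other.

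Both libraries were made from the peripheral retina, the area where the alpha-Cre driver is active, of mice at postnatal day 8. Both genotypes carry alpha-Cre with floxed Rb alleles and lack p107, and are called DKO (tumor-prone, per the labels) when nothing else is altered and DKO_Skp2het (tumor-resistant, per the labels) when 1 copy of Skp2 is also missing. There was 1 library per genotype, the number of animals in each is not given in the sources used here, and no retina with intact Rb or p107 was analysed here, so genotype and library cannot be told apart and no test was made. Intervals given below are 95% intervals of counting error only, and they treat the UMIs of 1 cell as independent. DKO cells had a median of 4939 UMIs and a minimum of 3420, DKO_Skp2het cells a median of 3874 and a minimum of 2387, and the members' medians were 4171 and 3449.5. Barcodes shared by the libraries numbered 30, and 0 of them were members.

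During retinal neurogenesis, multipotent progenitors that are about to give rise to neurons switch on proneural basic helix-loop-helix factors such as Neurog2. These factors activate Delta ligands, which signal through Notch receptors on neighbouring cells, and Notch signalling there switches on the repressors Hes1 and Hes5 that hold a cell in the progenitor state. Olig2 and Foxn4 mark progenitors near their last divisions. Rb and p107 restrain E2F factors, which drive the genes of DNA replication, and Skp2 is the receptor subunit of a ubiquitin ligase that targets the cyclin-dependent kinase inhibitors p27 (Cdkn1b) and p57 (Cdkn1c).

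Promoters of 4 genes that the results below turn on are shown first, because they carry letters known from the factors named above. Sequences are RefSeq promoters of build GRCm38.p6, the 250 bases before the start site, written 5′ to 3′ along the gene, with the matches in capitals. Matches were counted on both strands of windows of 300 bases that also hold the first 50 bases of the transcript. For E2F the letters searched were TTTGGCGC, TTTCCCGC, TTTGCCGC and TTTCGCGC, which 2.26% of all 32851 promoters hold. For proneural factors the letters were CAGCTG (16.3% of promoters), and for the Notch effector RBPJ they were TGGGAA (25.6%). Mcm6, a subunit of the replicative helicase, lies at chr1:128359706-128359955 on the minus strand and holds 3 E2F matches, of which the first 2 overlap. Cdca7, a chromatin protein expressed at the start of S phase, lies at chr2:72475969-72476218 on the plus strand with 1 E2F match. Hes5 lies at chr4:154960673-154960922 on the plus strand with 2 TGGGAA matches, at 226 and 82 bases before the start. Dll3, a Delta family member, lies at chr7:28301786-28302035 on the minus strand with 1 CAGCTG match at 7 bases before the start.
Mcm6: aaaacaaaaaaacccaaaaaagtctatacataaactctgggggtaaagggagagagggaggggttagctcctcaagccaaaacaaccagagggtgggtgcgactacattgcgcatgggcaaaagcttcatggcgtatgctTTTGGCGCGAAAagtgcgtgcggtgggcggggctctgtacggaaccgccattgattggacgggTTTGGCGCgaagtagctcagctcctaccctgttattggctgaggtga
Cdca7: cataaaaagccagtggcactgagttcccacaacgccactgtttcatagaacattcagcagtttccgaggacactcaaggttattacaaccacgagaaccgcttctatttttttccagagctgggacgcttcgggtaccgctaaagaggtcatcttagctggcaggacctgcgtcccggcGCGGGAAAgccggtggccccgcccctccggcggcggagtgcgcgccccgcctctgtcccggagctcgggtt
Hes5: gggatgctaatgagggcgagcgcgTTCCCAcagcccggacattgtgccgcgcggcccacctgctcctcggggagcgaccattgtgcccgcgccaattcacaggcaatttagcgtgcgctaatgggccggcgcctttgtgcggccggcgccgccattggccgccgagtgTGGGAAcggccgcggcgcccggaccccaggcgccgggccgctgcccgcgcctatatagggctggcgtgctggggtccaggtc
Dll3: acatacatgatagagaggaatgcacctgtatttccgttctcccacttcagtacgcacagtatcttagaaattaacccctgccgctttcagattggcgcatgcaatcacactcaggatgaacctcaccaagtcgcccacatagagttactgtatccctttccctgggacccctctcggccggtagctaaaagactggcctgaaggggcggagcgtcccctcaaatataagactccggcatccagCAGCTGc

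A match is a description of letters and not a measured binding site. Among the 37 genes of the S phase list that matched a promoter in the table, 14 (37.8%) held an E2F match, beside 2.61% of all 27025 genes. Of the 39 matched genes of the G2M list, 1 (2.56%) did. The genes with a match included Mcm3, Mcm5, Mcm6 and Mcm7 of the helicase and Cdc6 and Cdt1, which load it.

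The targeted gene was checked first. Skp2 had 24 UMIs in the members of each library, 97.0 CPM in DKO and 49.5 CPM in DKO_Skp2het. The DKO_Skp2het over DKO ratio was 0.511 (0.278 to 0.939) in members and 0.713 in all other cells, both in the direction of the label. With 3 of the 6 neurogenic genes required, which left 12 and 25 members, the Skp2 difference was 0.34 (log2, DKO_Skp2het minus DKO). Rb1 (3 and 5 member UMIs) and Rbl1 (6 and 18), the gene of p107, were counted from 3′ ends, which check nothing about a deletion elsewhere in the gene.

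Members made up 1.35% of the DKO library, with an interval of 1.00% to 1.79%. In DKO_Skp2het they made up 2.19% (1.81% to 2.63%), which is 1.62 times the DKO share (1.15 to 2.32). Neurogenic cells above the mitotic limit, called mitotic-phase neurogenic cells below, took 3.09% and 2.58% of cells, 112 and 134 in number, with a ratio of 0.834 (0.644 to 1.08). Low-mitotic cells were therefore 30.4% of all neurogenic cells in DKO (23.4% to 38.2%) and 46.0% in DKO_Skp2het (39.6% to 52.4%), a ratio of 1.51 (1.07 to 2.16). Cells below the mitotic limit were also more numerous outside the neurogenic gate, and of all low-mitotic cells the members took 2.59% and 3.30%, a ratio of 1.27 with an interval (0.904 to 1.82) that includes 1. Detection of a gene depends on depth, which differed between the libraries. With every cell thinned to 2000 UMIs, 10 draws gave 0.691% to 1.08% in DKO and 1.29% to 1.56% in DKO_Skp2het, with ratios of 1.34 to 2.12. Only 10 to 19 of the thinned DKO members and 39 to 47 of the thinned DKO_Skp2het members were members at full depth, so single cells enter and leave with the depth while the direction of the share stayed the same in these draws.

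Values of the rule's own genes describe how members were chosen. In both libraries together 126 members had 2 of the 6 genes, 28 had 3 and 9 had 4. Pkib with Rgs13 was the most frequent pair, in 71 members (43.6%), and Dll3 with Pkib was found in 14 DKO and 21 DKO_Skp2het members. Most detections rested on 1 UMI, from 73.3% of cells with Pkib to 94.4% of cells with Foxn4. A single gene of the Otx2 set was detected in 104 members, and 27 members had none of the mitotic UMIs.

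Pkib encodes an inhibitor of protein kinase A. It was detected in 75.5% of DKO members and 69.3% of DKO_Skp2het members, and in 40.8% and 47.4% after thinning. Microglia, taken as a type that should lack neurogenic genes, had Pkib in 36.4% of 33 DKO cells and 44.2% of 43 DKO_Skp2het cells, at median depths of 9007 and 6984 UMIs. After thinning these shares were 9.09% and 23.3%, and those of other low-mitotic cells 7.0% and 7.51%. The thinned microglia interval was 1.92% to 24.3% in DKO, which includes the 7.0%, and 11.8% to 38.6% in DKO_Skp2het. Other low-mitotic cells also hold the Otx2 gate cells described below, so they are not a type without neurogenic genes. Whether the microglia share is a background for Pkib was not tested. Summed over members, Pkib stood at 210 and 221 CPM, beside 36.7 and 45.5 CPM in other low-mitotic cells. Rgs13, a regulator of G protein signalling, was detected in 55.1% and 64.9% of members (32.7% and 36.0% thinned) and in 1 of 33 DKO and 0 of 43 DKO_Skp2het microglia, the latter allowing a share of up to 6.98% (3 counts of 43). Dll3 was detected in 42.9% and 36.0% of members (24.5% and 20.2% thinned) and in 0 of 33 microglia, which allows up to 9.09% (3 counts of 33), and 1 of 43.

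Of the markers given for these cells, Mybl1 and Wnt5b were not used by the rule. Mybl1, a Myb family transcription factor, had 38 UMIs in 22 DKO members and 100 UMIs in 60 DKO_Skp2het members, 154 and 206 CPM. That was 2.68 (1.88 to 3.72) and 2.56 (2.07 to 3.14) times other low-mitotic cells. Mitotic-phase neurogenic cells had 213 and 259 CPM, and the members' ratios to them, 0.721 (0.488 to 1.05) and 0.798 (0.616 to 1.03), had intervals that include 1. Detection of Mybl1 was 44.9% and 52.6% in members, 22.4% and 36.8% after thinning, and 9.09% and 4.65% in microglia. Wnt5b, a Wnt ligand, was detected in 10 and 15 members and had 40.4 and 39.2 CPM, beside 16.9 and 20.9 CPM in other low-mitotic cells. No interval is given for these levels. Otx2 gate cells, described below, had Wnt5b in 14.04% and 15.3%, within the intervals of members, 20.4% (10.2% to 34.3%) and 13.2% (7.56% to 20.8%). After thinning the shares were 5.31% and 8.72%, beside 10.2% and 12.3% of members. Mybl1 was detected in 41.6% and 40.5% of Otx2 gate cells, and only the DKO_Skp2het members' interval (43.1% to 62.1%) lies above this. Foxn4, a gene of the rule in both populations, had 32.3 and 24.8 CPM in members and 135 and 132 CPM in mitotic-phase neurogenic cells, given as a description. It was detected in 12.2% and 10.5% of members and in 12.1% (4 of 33) and 0 of 43 microglia. After thinning the shares were 4.08% and 5.26% in members and 3.03% and 0 in microglia, so in DKO the members lay near the microglia at either depth.

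The label was then checked against markers of other retinal cell types. Using 8 lists, and a limit of 4 detected genes of 1 list that was set after the data had been seen, 16 of 49 DKO members (32.7%) and 21 of 114 DKO_Skp2het members (18.4%) carried another type's genes. Immature neuron genes were reached by 12 and 13 of them, amacrine and horizontal genes by 7 and 13, microglia genes by 2 and 1, photoreceptor genes by 1 and 3, and endothelium and pericyte genes by 0 and 1. Members with 3 such genes, just below the limit, numbered 9 and 10. The carriers were deep, with medians of 5412 and 4715 UMIs, beside 3938 and 3325 UMIs in the 33 and 93 members left, called the filtered members below. The microglia list summed to 1664 and 221 CPM in all members and to 19.8 and 13.9 CPM in the filtered members, where C1qa was at 0 in both libraries. Its sum was 0 in 43 of 49 DKO and 108 of 114 DKO_Skp2het members and reached 29063 and 27808 CPM in single cells. For the immature neuron list the sums were 1608 and 726 CPM, and 356 and 225 CPM after filtering. Most members thus stayed below the limit for these 8 lists, which did not include Müller glia genes. Staying below it does not by itself show a neurogenic state. Several results below are also given without the carriers. Retinal progenitor genes were detected in every member, with a range of 1 to 15 genes of the list and medians of 8 and 7. Members that carried microglia genes were among those with 1 gene, so this detection does not set neurogenic cells apart.

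S phase genes, which the rule did not use, were abundant in most members. In cells thinned to 2000 UMIs, the S phase list gave a median of 16 UMIs in DKO members (quartiles 10 and 18) and 15.5 in DKO_Skp2het members (9 and 19). Other low-mitotic cells had medians of 10 and 11 UMIs and mitotic-phase neurogenic cells 8 and 6. At least 10 S phase UMIs were found in 75.5% of DKO members (61.1% to 86.7%) and 71.9% of DKO_Skp2het members (62.7% to 79.9%), beside 50.1% and 53.5% of other low-mitotic cells and 42.9% and 34.3% of mitotic-phase neurogenic cells. In the filtered members the shares were 90.9% and 78.5%. Otx2 gate cells, described below, had 55.5% and 66.1%, the latter within the interval of all DKO_Skp2het members. The G2M list without the rule's genes gave medians of 2 and 3 UMIs in members, 2 and 2 in other low-mitotic cells, and 24.5 and 29 in mitotic-phase neurogenic cells, an order that the mitotic limit of the rule fixes in part.

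**Figure D1:**
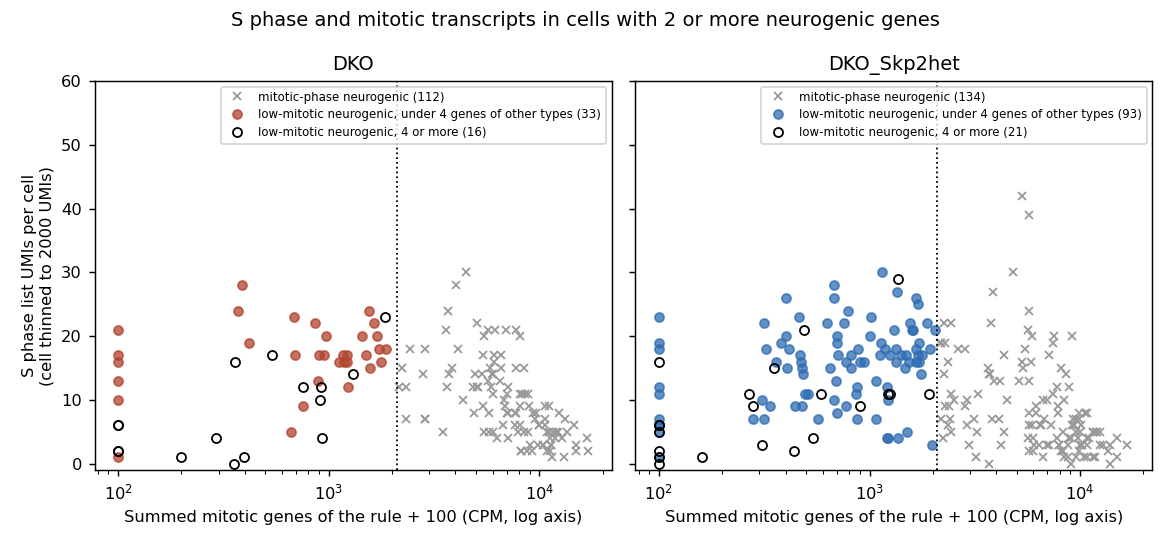
Each point is 1 neurogenic cell, with the summed mitotic genes of the rule plus 100 on a log axis (CPM) against the UMIs of the S phase list after thinning to 2000 UMIs, DKO on the left and DKO_Skp2het on the right; the dotted line is the 2000 CPM limit. Members lie left of the line, and 75.5% and 71.9% of them have at least 10 S phase UMIs, while open circles, members with 4 or more genes of another type, lie mostly lower.

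Members just inside the mitotic limit (1500 to 2000 CPM) numbered 6 and 14 and had medians of 19 and 17.5 S phase UMIs. Cells just outside it (2000 to 2500 CPM) numbered 5 and 16 and had medians of 12 and 10.5. Below the limit on neurogenic genes, 251 DKO and 462 DKO_Skp2het cells met every other condition but had 1 of the 6 genes, with S phase medians of 9 and 11 UMIs.

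Summed over cells, the S phase list stood at 6484 CPM in DKO members and 6457 CPM in DKO_Skp2het members, beside 4589 and 5109 CPM in other low-mitotic cells. Of its 52 genes, 39 had at least 50 CPM over all cells. Past 1.5-fold over other low-mitotic cells in both libraries, 2 were higher (Mcm5 and Cdca7) and 0 lower. Over all 3448 genes at that level, 1.07% were higher and 4.41% lower, so few single genes stood out while the list's median moved by 0.46 and 0.30 on the log2 scale, against -0.037 and 0.007 for all genes. In filtered members the medians were 0.79 and 0.51.

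Mcm6 had 37 UMIs (149 CPM) in DKO members and 68 UMIs (140 CPM) in DKO_Skp2het members. These levels were 3.32 (1.96 to 5.71) and 2.39 (1.58 to 3.67) times those of mitotic-phase neurogenic cells, and 1.57 (1.10 to 2.18) and 1.22 (0.943 to 1.55) times those of other low-mitotic cells. Ung, the uracil-DNA glycosylase that removes uracil from new DNA, had 178 and 149 CPM in members and 12.1 and 28.6 CPM in mitotic-phase neurogenic cells. E2f1, itself an activator of S phase genes, had 319 and 380 CPM against 119 and 87.3 CPM there, ratios of 2.67 (1.91 to 3.75) and 4.35 (3.20 to 5.99). No E2F match was found in the windows of Ung and E2f1, which says only that those letters are not in those windows.

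Compared with all other cells of their library, 4 of 1167 genes (0.343%) were above 2-fold in members of both libraries, namely Miat, Cdkn1c, Btbd17 and Ung, and 6 (0.514%) were below it. These genes had at least 100 member UMIs, and the rule's own genes were left out. The rule chose the cells, so the counts are a description. Cdkn1c, which encodes the inhibitor p57, had 285 UMIs in 34 of 49 DKO members and 442 UMIs in 85 of 114 DKO_Skp2het members. Its level was 1151 CPM in DKO members and 285 CPM in other DKO cells, a ratio of 4.04 (3.58 to 4.55). In DKO_Skp2het it was 912 CPM and 343 CPM, a ratio of 2.66 (2.41 to 2.93). Filtered members had 1747 and 1004 CPM. Over the low-mitotic cells with 1 neurogenic gene, members with 2 such genes had 3.57 (3.03 to 4.21) and 2.30 (2.03 to 2.60) times the Cdkn1c level.

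Miat, a long non-coding RNA of neural progenitors, had 206 CPM in DKO members and 258 CPM in DKO_Skp2het members, 3.77 (2.79 to 4.99) and 3.35 (2.77 to 4.01) times other cells. Btbd17 had 137 and 157 CPM, 2.66 and 2.23 times other cells. Other genes among the 15 with the largest difference in both libraries were Cdca7, E2f1, the tumor suppressor gene Trp53 and Tead2, a partner of the Hippo pathway's Yap, with ratios of 1.54 to 1.92, and Dnajc15 and Ncald. Hes5 was also among them, at 2.03 (1.71 to 2.39) and 1.92 (1.74 to 2.10) times other cells. A further 4 genes rested on few cells. Snhg11 came from 7 and 6 members, C1ql1 from 4 and 9, Sepp1 from 3 and 4, and 44.1% of the DKO_Skp2het UMIs of Sparc came from 1 cell. In filtered members Snhg11, C1ql1 and Sepp1 were below other cells in both libraries (log2 differences of -4.38 and -3.22, -4.48 and -1.66, and -2.20 and -2.67), and Sparc differed from them by 0.012 and 0.13.

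**Figure D2:**
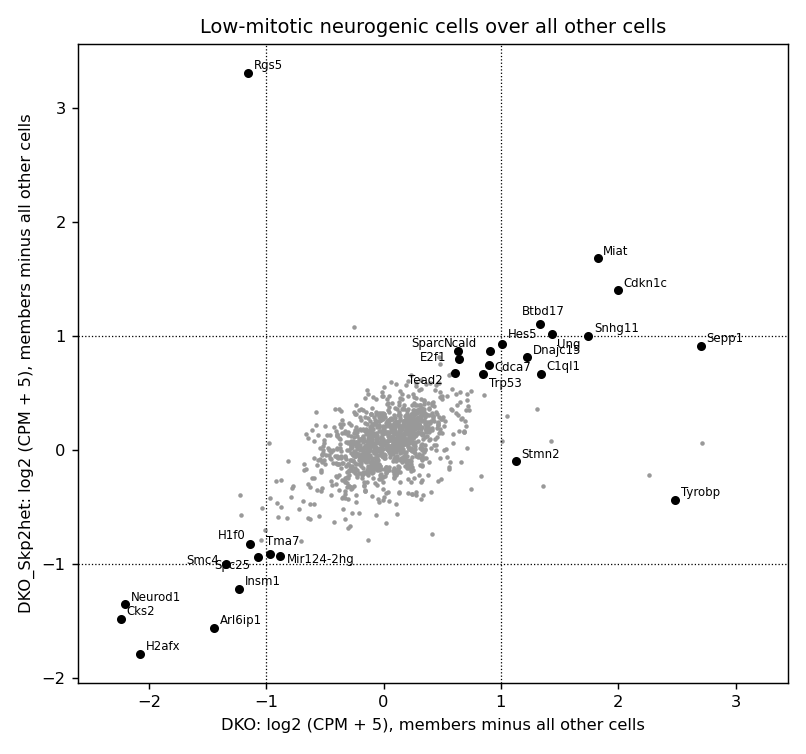
Each point is a gene with at least 100 member UMIs, placed by its log2 difference (CPM plus 5) between members and all other cells in DKO (horizontal) and DKO_Skp2het (vertical); dotted lines mark 2-fold. Miat, Cdkn1c, Btbd17 and Ung lie past 2-fold in both libraries, and Tyrobp, a microglia gene, and Rgs5, a pericyte gene, lie far out in 1 library each.

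Lower in members were H2afx, Cks2, Arl6ip1 and Smc4, which peak in dividing cells, and the neuronal differentiation genes Neurod1 and Insm1. Neurod1, a factor of photoreceptor and amacrine differentiation, had 170 CPM in DKO members and 798 CPM in other cells, and 244 and 631 CPM in DKO_Skp2het. Against other low-mitotic cells Neurod1 was still lower, at 0.325 (0.234 to 0.440) and 0.521 (0.430 to 0.624), whereas H2afx, Cks2 and Smc4 stood at 1.10 to 1.67 times these cells. Over the same low-mitotic cells, 5 of 1167 genes (0.428%) were above and 2 (0.171%) below 2-fold in both libraries. Photoreceptor genes were lower past 1.5-fold in 11 of 11 genes that passed 50 CPM and bipolar genes in 3 of 3, beside 4.41% of all 3448 genes at that level. The photoreceptor list stood at 238 and 625 CPM in members and 4680 and 4241 CPM in other low-mitotic cells. Filtered members had 165 and 209 CPM. The rule's limit on Otx2 set genes bears on these lists.

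Against mitotic-phase neurogenic cells, 27 of 1167 genes (2.31%) were higher and 27 (2.31%) lower past 2-fold in both libraries. Cks2, a cofactor of mitotic kinases, had 137 and 221 CPM in members and 1786 and 1985 CPM in mitotic-phase cells, and H2afx had 178 and 196 CPM against 1770 and 1674 CPM. The G2M list's median difference was -3.54 and -3.04 (log2), which follows the rule, and the S phase list's was 0.67 and 0.73. Among the 10 highest genes, Cdkn1c and Ung remained higher in filtered members, by 2.31 and 1.55 and by 3.70 and 2.45 on the log2 scale. Snhg11, Pcsk1n, Ctsd, Syt1, C1ql1 and Sepp1 did not stay above the mitotic-phase cells in both libraries once the other-type members were left out. Tyrobp, from 6 and 2 cells, then had differences of 1.06 and 0.24. Leaving those members out lowered the count of higher genes from 27 to 13, among the 827 genes that still met the UMI minimum. Over the original 1167 genes, higher and lower genes together went from 54 to 42. The same counts rose from 10 to 35 over all other cells and from 43 to 74 over Otx2 gate cells. Over other low-mitotic cells they rose from 7 to 36. The part of the lower UMI counts in these changes was not tested.

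Otx2 gate cells carried at least 2 of Otx2, Prdm1, Neurod4 and Epha8, the genes of photoreceptor and bipolar precursors, and numbered 584 and 1044. Over them 37 of 1167 genes (3.17%) were higher and 6 (0.514%) lower past 2-fold in both libraries. Hes5 had 590 and 966 CPM in members and 163 and 288 CPM in Otx2 gate cells, ratios of 3.62 (3.01 to 4.34) and 3.35 (3.01 to 3.72). Ptn, a secreted growth factor of progenitors and glia, was 3.50 and 3.65 times higher, and Id3, an inhibitor of proneural factors, 4.34 and 5.05 times. Lower were Neurod1 (0.157 and 0.240), Mir124-2hg, the host transcript of a neuronal microRNA (0.265 and 0.294), and Tma7 (0.213 and 0.266), with Glo1, Amer2 and Nrep. Members and Otx2 gate cells were closer in S phase transcripts, with medians of 16 and 15.5 against 11 and 14 thinned UMIs.

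**Figure D3:**
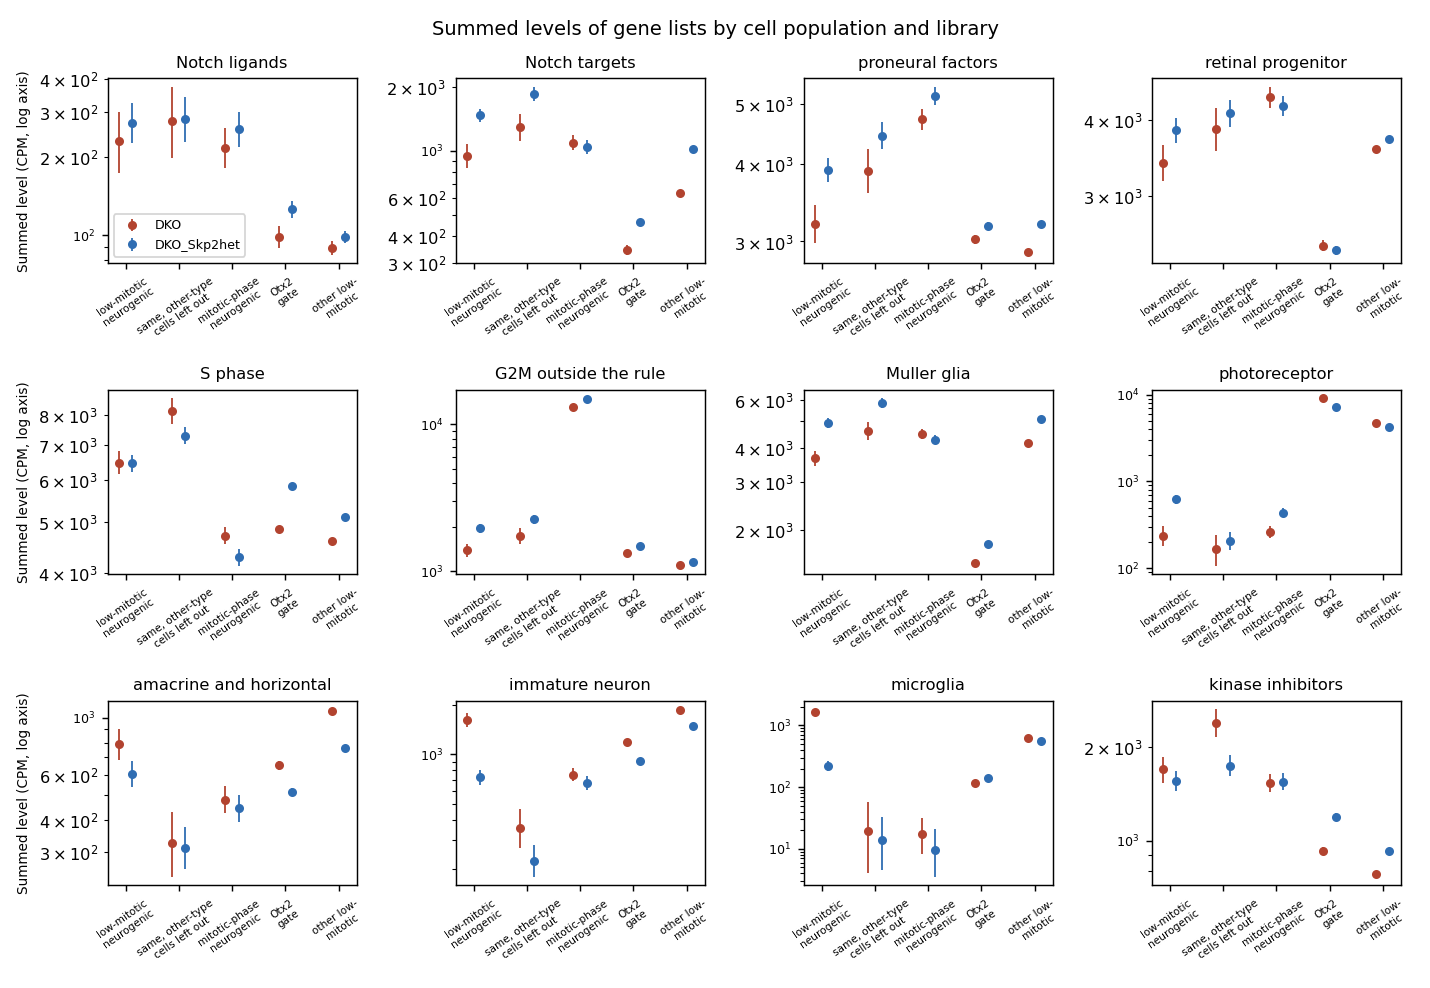
Summed level (CPM, log axis) of 12 gene lists in 5 cell populations, DKO in red and DKO_Skp2het in blue, with 95% counting intervals. S phase is highest in the members and in the same cells with other-type carriers left out, while the microglia sum drops from 1664 to 19.8 CPM in DKO between those 2 populations.

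The Notch pathway is described by role. Of the 8 ligands on the list, none reached 50 CPM over all cells, and the list's sum, which contains the rule's Dll3 and Dll4, was 230 and 272 CPM in members. Dll1, a ligand outside the rule, had 15 and 29 UMIs, 60.6 and 59.8 CPM, which was 4.31 (2.36 to 7.33) and 2.58 (1.70 to 3.77) times other low-mitotic cells. Mfng, a glycosyltransferase that modifies Notch, had 84.8 and 76.4 CPM and stood at 2.65 (1.62 to 4.11) and 1.98 (1.38 to 2.76) times. The receptor Notch1 had 182 and 229 CPM, 1.74 (1.26 to 2.35) and 1.71 (1.40 to 2.08) times other low-mitotic cells. Of the targets, 3 of 6 passed 50 CPM, and 1 (Hes5) was higher past 1.5-fold in both libraries with 0 lower. Hes1 was at 1.03 (0.754 to 1.38) and 1.10 (0.896 to 1.33), within counting error of other low-mitotic cells, although filtered members were 0.61 and 0.47 above them on the log2 scale. Dll1, Notch1 and Hes5 were thus higher in the members than in other low-mitotic cells of both libraries. Dll1 was detected in 20.4% and 20.2% of members and in 23.2% and 29.1% of mitotic-phase neurogenic cells. For Notch1 the shares were 57.1% and 54.4% against 62.5% and 62.7%. Detection of Dll1 and Notch1 thus did not set the members apart from mitotic-phase neurogenic cells. Hes5 was detected in 61.2% of DKO members (46.2% to 74.8%) and 58.9% of DKO mitotic-phase neurogenic cells (49.2% to 68.1%). Its detection did not set the DKO members apart either. In DKO_Skp2het the shares were 66.7% (57.2% to 75.2%) and 52.99% (44.2% to 61.7%), with intervals that overlap.

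Of the 15 genes on the proneural list, 11 passed 50 CPM. Over other low-mitotic cells, 3 were higher past 1.5-fold in both libraries (Neurog2, Hes6 and Tcf3) and 1 lower (Neurod1), beside 1.07% and 4.41% of all genes at that level. Neurog2 had 15 UMIs in 12 DKO members and 50 UMIs in 24 DKO_Skp2het members, 60.6 and 103 CPM, which was 1.74 (0.963 to 2.90) and 2.95 (2.16 to 3.94) times other low-mitotic cells, with a DKO interval that includes 1. Mitotic-phase neurogenic cells had more, 159 and 224 CPM. Hes6, an antagonist of Hes1, had 820 and 1238 CPM in members, 423 and 601 CPM in other low-mitotic cells and 1722 and 2015 CPM in mitotic-phase neurogenic cells. By these levels members lay between these populations for Neurog2 and Hes6, but for Neurog2 in DKO the difference from other low-mitotic cells was within counting error. Retinal progenitor genes (14 of 19 past 50 CPM) had 0 higher and 0 lower, and Müller glia genes (9 of 13) likewise 0 and 0.

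In 80 of 163 a Dll3 or Dll4 UMI was detected, 25 in DKO and 55 in DKO_Skp2het, and these were set beside the 24 and 59 members without. Both ligands belong to the rule, so members without one carry at least 2 of Olig2, Foxn4, Pkib and Rgs13, and most ligand detections rested on 1 UMI. The values are a description of the members as chosen. Hes5 had 483 CPM in ligand-positive and 721 CPM in ligand-negative DKO members, a ratio of 0.671 (0.477 to 0.941). In DKO_Skp2het the values were 708 and 1210 CPM, a ratio of 0.585 (0.481 to 0.709). In filtered members the ratios were 0.617 (0.423 to 0.893) and 0.686 (0.561 to 0.835). In DKO the difference rested on 1 ligand-negative cell, which held 28 of the 146 UMIs. Without that cell the DKO ratio was 0.995 (0.681 to 1.46), and 0.912 (0.602 to 1.38) in filtered members. Without the highest cell in DKO_Skp2het, also ligand-negative, the ratios were 0.634 (0.520 to 0.772) and 0.742 (0.605 to 0.908).

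Neurog2 was at a ratio of 2.24 (0.662 to 9.63) and 3.0 (1.56 to 6.15). Btg2, an antiproliferative gene of neurogenic divisions, was at 2.10 (1.46 to 3.06) and 1.22 (1.03 to 1.45), and Gadd45g at 1.54 (0.683 to 3.72) and 2.46 (1.67 to 3.68). Without its highest cell, which held 36 UMIs, Gadd45g was at 1.52 (0.989 to 2.35) in DKO_Skp2het, while Btg2 without its highest cells was at 1.83 (1.26 to 2.70) and 1.29 (1.08 to 1.55). Sox2, a progenitor factor, was at 0.717 (0.334 to 1.53) and 0.449 (0.263 to 0.744). In filtered members Sox2 was at 0.798 (0.353 to 1.77) and 0.596 (0.345 to 1.0006), intervals that include 1. Without its highest cells, both ligand-negative, Sox2 was at 0.969 and 0.500 (0.290 to 0.838) in all members. In filtered members it was then at 1.08 and 0.674 (0.386 to 1.15). Stmn2, a gene of growing axons, was at 7.32 and 9.67, but nearly all its UMIs sat in other-type carriers and filtered ligand-positive DKO members had none. S phase medians were 16 and 16 thinned UMIs in ligand-positive members and 16 and 15 in ligand-negative members. Depth differed in opposite directions, with medians of 4731 and 3940 UMIs in DKO and 3317 and 3575 in DKO_Skp2het for members with and without a ligand UMI, and its part in these differences was not tested.

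**Figure D4:**
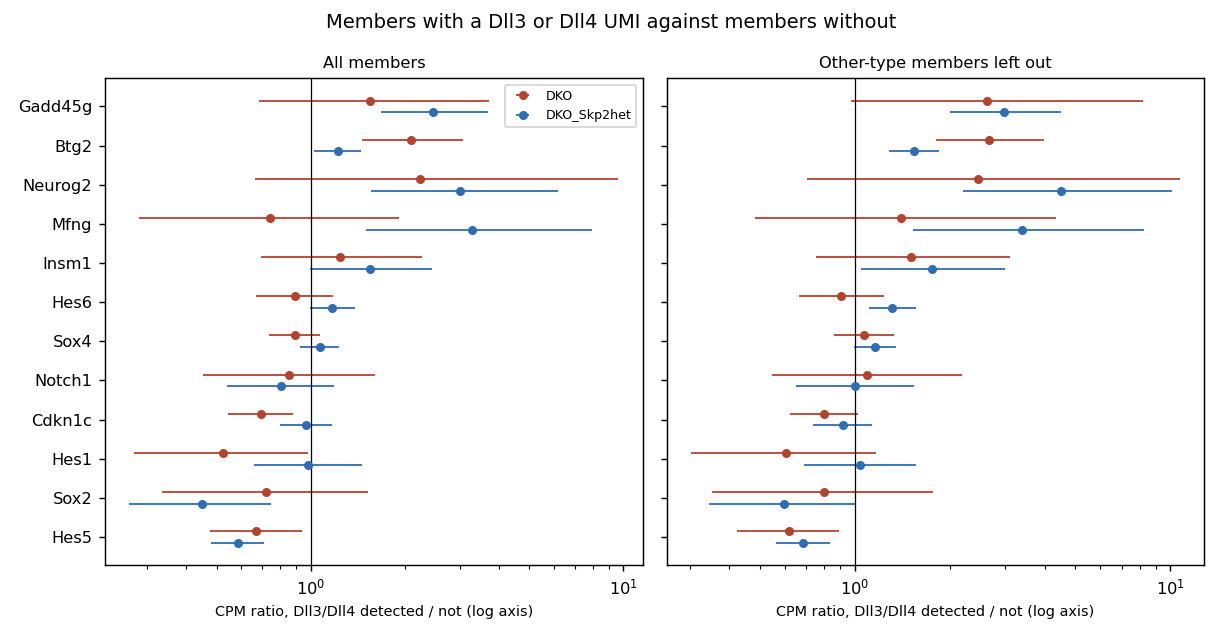
CPM ratio (log axis) of members with a Dll3 or Dll4 UMI over members without, with 95% counting intervals, for all members (left) and with other-type carriers left out (right), DKO in red and DKO_Skp2het in blue. Btg2 lies above 1 and Hes5 below 1 in both libraries and panels, but the DKO Hes5 ratio is 0.995 for all members without 1 ligand-negative cell.

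Between the libraries, 45 of 1172 genes (3.84%) were higher and 34 (2.9%) lower past 1.5-fold in DKO_Skp2het members. Of these 79 genes, 41 stayed past 1.5-fold in filtered members (26 higher and 15 lower, among 76 and 39 genes then past it), and 2 were past it in all other cells as well. At 50 CPM over all cells, 10.6% of 3448 genes were higher and 5.89% lower. Gadd45g, a stress and differentiation gene activated by proneural factors, had 117 CPM in DKO members and 268 CPM in DKO_Skp2het members, a ratio of 2.29 (1.52 to 3.55), beside 0.890 in all other cells. In DKO_Skp2het 27.7% of its UMIs came from 1 cell, and after thinning the log2 difference was -0.52. Nrarp, a Notch target that limits Notch signalling, had 113 and 219 CPM, a ratio of 1.93 (1.27 to 3.05) and 1.13 in other cells.

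Hes5 was higher in DKO_Skp2het members by a ratio of 1.64 (1.36 to 1.99), but other cells differed by 1.74, so the difference was not larger in members. Of the 3 Notch targets past 50 CPM, 2 (Hes5 and Nrarp) were higher past 1.5-fold and 0 lower. Among all 3448 genes at that level, 10.6% were higher and 5.89% lower. The Notch target list's sum, which contains Hes5, had a ratio of 1.55 (1.34 to 1.81), or 1.43 (1.22 to 1.69) in filtered members. G2M genes outside the rule were higher past 1.5-fold in 13 of 27 and lower in 1, with a sum of 1382 CPM in DKO and 1954 CPM in DKO_Skp2het and a ratio of 1.41 (1.25 to 1.61). Their median log2 difference was 0.57 in members, 0.63 in filtered members and -0.10 in other cells, against 0.066 over all genes in members. Per cell, the sum of these G2M genes had medians of 1161 CPM in DKO members and 1364 CPM in DKO_Skp2het members. Single cells reached 5030 and 13781 CPM. After thinning, the medians were 2 and 3 UMIs, while single DKO_Skp2het members had 30, 19 and 16. The sum ratio without the highest cells was not tested. The S phase list had 4 higher and 1 lower of 39, so its higher genes were near the 10.6% of all genes. Its sum ratio was 0.996 (0.937 to 1.06), or 0.897 (0.838 to 0.961) in filtered members.

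The Cip/Kip inhibitors went different ways. Cdkn1c was lower in DKO_Skp2het members, with a ratio of 0.792 (0.681 to 0.923) in all members and 0.574 (0.489 to 0.676) in filtered members, while all other cells had a ratio of 1.20. Cdkn1b, the gene of p27, had 13 and 36 UMIs and a ratio of 1.41 (0.733 to 2.91), and Cdkn1a, the gene of p21, a ratio of 1.20 (0.881 to 1.64). Both intervals include 1. These are transcript levels, and Skp2 acts on the proteins.

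Of the 34 genes lower in DKO_Skp2het members, 15 stayed past 1.5-fold in filtered members. Tyrobp had 364 and 57.8 CPM, with 56.7% of the DKO UMIs in 1 cell, and Ctsd had 1252 and 268 CPM with 51.3% in 1 cell. In filtered members Ctsd had a ratio of 1.69 (0.672 to 5.04) and Ctsb one of 1.05 (0.445 to 2.77). Immature neuron genes were lower past 1.5-fold in 7 of 8 genes, beside 5.89% of all genes, but in filtered members 4 were lower and 3 higher. The list's sum had a ratio of 0.452 (0.390 to 0.523), and 0.633 (0.443 to 0.910) in filtered members. Tubb2b, a neuronal tubulin, had 47.7% of its DKO UMIs in 1 cell and a ratio of 0.422 (0.226 to 0.786) after filtering. Thinning to 2000 UMIs turned the direction of Tubb2b, Tyrobp and Ctsd, with log2 differences of 1.17, 4.72 and 3.90. The part of the other-type cells in the remaining difference was not tested.

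**Figure D5:**
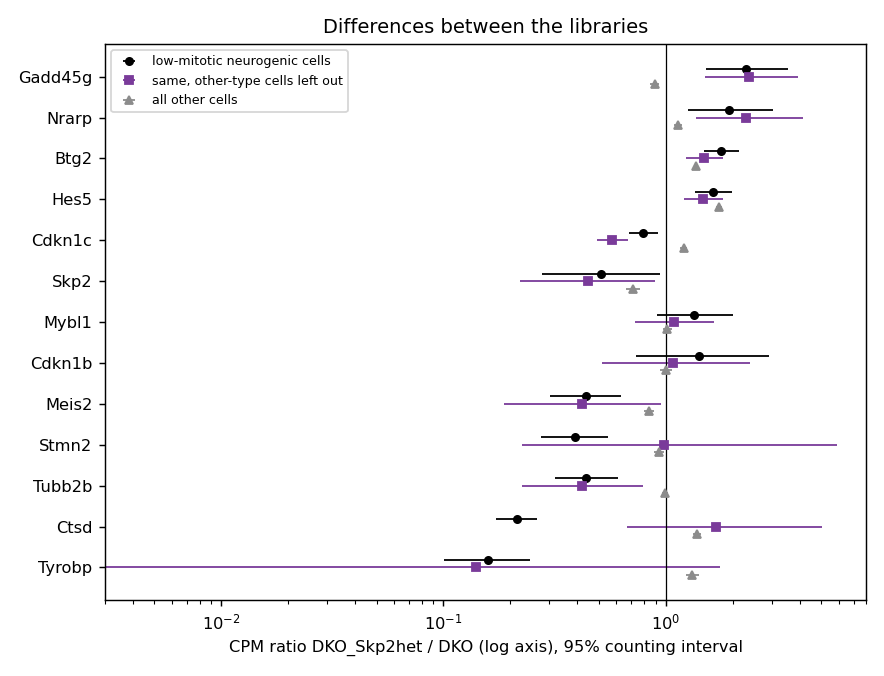
CPM ratio of DKO_Skp2het over DKO (log axis) with 95% counting intervals, for members (circles), members without other-type carriers (squares) and all other cells (triangles). Gadd45g and Nrarp lie above 1 and Cdkn1c and Skp2 below 1 in members with and without the carriers, while Ctsd crosses 1 once the carriers are left out; the lower end of the Tyrobp interval without carriers lies beyond the axis.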

How the data were processed

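The authors deposited raw UMI counts per gene and barcode for each library. Per the labels' protocols, libraries came from papain-digested tissue with the 10x 3′ kit. Per the submitters' processing notes, Cell Ranger 2.2.0 and the mm10 build were used; the cell filter is not given in the sources used here. Barcodes with at least 500 genes were kept, which removed 1 in DKO and 2 in DKO_Skp2het, and doublets were left in. UMIs of all cells in a population were added up and scaled to CPM. Log2 differences are of CPM plus 5, which understates differences of low genes. Sums carry exact Poisson intervals, shares Clopper-Pearson intervals and ratios conditional binomial intervals. Intervals cover counting error only.

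The members, the 29 gene lists and the tests were chosen with earlier results of these data known. Named genes were the rule's genes and markers, Skp2, Rb family and Cip/Kip genes, the 15 highest and 10 lowest over other cells, the 10 per direction over mitotic-phase neurogenic cells, the 8 over Otx2 gate cells and the 12 between libraries (among genes with at least 100 member UMIs, without unnamed, mitochondrial and rule genes), and up to 4 per list; 1 gene is not reported here. Other genes, such as Mcm6 among the promoters, were added after their values were seen. A list gene was counted from 50 CPM over all cells. Of 27998 identifiers, 27645 matched GENCODE. Calculations were tested on simulated data. Software was scanpy 1.11.5 (doublet scores), pandas 2.3.3, numpy 2.4.6, matplotlib 3.10.9 and scipy 1.17.1 under Python 3.11.15. Alternatives covered depth, doublets, rule thresholds, pseudocount, count minimum, scaling and comparison cells.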

Additional observations from a re-analysis of the deposited data

Results flagged for a closer look

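Rgs5, a pericyte gene, lay on opposite sides of all other cells in the members of the libraries. Its log2 difference from all other cells was -1.15 in DKO and 3.31 in DKO_Skp2het, and the difference between the libraries was not tested. DKO members held 1 UMI of Rgs5. All 113 UMIs in DKO_Skp2het members came from 1 cell, which had 16827 UMIs, the most of any member, and was the member with 4 or more endothelium and pericyte genes.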

How the results depend on the processing

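No paired analysis was possible because each genotype has 1 library. The share ratio of 1.62 stayed above 1 under 8 alternatives. Among cells above a common floor of 3420 UMIs, which left out 1905 DKO_Skp2het cells, it was 1.30, from 49 and 58 members. No interval was computed for that ratio, so whether it differs from 1 beyond counting error was not tested. The ratio was 1.96 without other-type members and 1.34 to 2.12 in 10 thinning draws. Gene counts depended on the settings. For thinning, 3 of 6 neurogenic genes, a minimum of 50 UMIs and a minimum of 200 UMIs, the 4 genes higher over all other cells became 1, 0, 8 and 1 (2 with a pseudocount of 20), the 27 over mitotic-phase neurogenic cells 5, 3, 56 and 7, the 37 over Otx2 gate cells 6, 5, 70 and 16, and the 79 between libraries 8, 9, 303 and 22. Mitotic limits of 1000 and 4000 CPM gave 17 and 59 of the 27, and leaving out other-type members, chosen after seeing the data, 13 in place of 27 and 41 in place of 79 among the 827 genes that then had 100 UMIs. Over the original 1172 genes the last count rose to 115 without these members. Thinning left 278 genes and 3 of 6 genes left 246.

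Of 630 values for 63 gene results, 501 stayed within counting error, 105 moved and 24 changed sign. Between libraries (log2), thinning reversed Rgs5 and Rbl2 (-2.04 each), Tyrobp (4.72), Ctsd (3.90), Psap (1.59), Fam32a (-0.42), Ctsb (1.01), Zfp207 (-0.27), Tubb2b (1.17), Tmem14c (-0.19), Gadd45g (-0.52) and Sepp1 (4.80). Requiring 3 of 6 genes, which left 12 and 25 members, reversed Hsp90b1 (-1.12), Ctsb (0.68), C1ql1 (2.22), Sepp1 (1.5) and Skp2 (0.34). Leaving out other-type members reversed Snhg11 (0.64), Ctsd (0.69), Ctsb (0.070) and C1ql1 (2.29). With other low-mitotic cells as the comparison, also chosen after seeing the data, Smc4 (0.54), H2afx (0.13) and Cks2 (0.16) turned positive. Leaving out the cell with most UMIs of a gene was also chosen after seeing the data. The causes were not tested. Removing doublets took out 1 and 4 members, and a mitochondrial limit of 20% removed none. Members held 247534 and 484557 UMIs in all, so genes under about 100 UMIs carry wide intervals.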
